A study of Mus musculus with 8 samples.

Results

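The Slc25 genes encode the mitochondrial carrier family, most of whose proteins move metabolites across the inner mitochondrial membrane. Their messenger RNA was followed in the mouse left ventricle through pregnancy and after birth. The members were all genes whose annotated symbol begins with Slc25a and whose probe set was annotated to that symbol alone, which gave 46 of the 22180 genes with such a probe set. Each of the 46 had 1 probe set. A gene was tested if at least 1 state averaged 5.19 or more on the log2 scale, the median of all values on the arrays. That left 39 of the 46 members among 13872 genes.

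The 8 arrays came from left ventricle of female C57BL/6 mice aged 3 to 4 months, bought from a breeder as timed-pregnant or as age-matched non-pregnant animals. There were 2 arrays for each of 4 states. They were pregnancy at day 12 (mid-pregnancy, replicates 2 and 3), late pregnancy labelled day 19 (replicates 1 and 2), day 1.5 post-partum (replicates 2 and 4) and non-pregnant mice in diestrus (replicates 2 and 3), a phase of the oestrous cycle, which is the reference state of the design. The protocol gives the late group as day 18 or 19, so its label covers a range. The labels name no drug or genetic change in any state. A piece of left ventricle was used, and 100 ng of RNA was labelled. The labels do not say which animals gave which arrays, so the p-values below measure the spread between arrays only.

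Members of this family share a fold of repeated transmembrane segments, and those with a settled substrate exchange or import particular small molecules. In heart muscle the ADP/ATP carriers and the phosphate carrier feed the ATP synthase and send its product to the contractile apparatus. The oxoglutarate and aspartate-glutamate carriers form the malate-aspartate shuttle, which brings reducing power from the cytosol, and the carnitine-acylcarnitine carrier admits fatty acids for oxidation, the main fuel of the adult heart. Other members import iron, cofactors, nucleotides and amino acids.

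The promoters of the members named first at day 12 (Slc25a22 and Slc25a34) and at day 19 (Slc25a45 and Slc25a25) are shown because these genes had the smallest p-values of the family in those comparisons with diestrus. Each line gives 250 bases before a start listed by RefSeq on the GRCm38.p6 assembly, 5′ to 3′ on the gene's own strand. Capitals mark a match on either strand to 1 chosen motif per gene. Slc25a34 and Slc25a25 also hold 1 GC box (GGGCGG) each, left in small letters. Slc25a22 (chr7:141437875-141438124, minus strand, 1 of 3 listed starts) has the GC box GGGCGG starting at position -18, counted from the start. Slc25a34 (chr4:141623835-141624084, minus strand) has the estrogen-related receptor half-site AAGGTCA as its reverse complement, starting at position -119. Slc25a25 (chr2:32424067-32424316, minus strand, the 1 of 3 listed starts that holds it) has the cyclic AMP response element TGACGTCA starting at position -150, and Slc25a45 (chr19:5877572-5877821, plus strand) has a GC box at position -36.
Slc25a22: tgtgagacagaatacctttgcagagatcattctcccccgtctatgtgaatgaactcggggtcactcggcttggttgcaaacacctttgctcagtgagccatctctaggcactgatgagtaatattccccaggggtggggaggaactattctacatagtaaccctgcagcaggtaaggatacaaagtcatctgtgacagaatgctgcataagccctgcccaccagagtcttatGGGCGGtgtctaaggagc
Slc25a34: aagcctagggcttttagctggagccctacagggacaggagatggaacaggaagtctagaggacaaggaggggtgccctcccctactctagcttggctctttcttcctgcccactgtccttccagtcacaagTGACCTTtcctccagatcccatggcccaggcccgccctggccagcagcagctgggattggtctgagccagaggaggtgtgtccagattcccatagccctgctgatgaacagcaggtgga
Slc25a45: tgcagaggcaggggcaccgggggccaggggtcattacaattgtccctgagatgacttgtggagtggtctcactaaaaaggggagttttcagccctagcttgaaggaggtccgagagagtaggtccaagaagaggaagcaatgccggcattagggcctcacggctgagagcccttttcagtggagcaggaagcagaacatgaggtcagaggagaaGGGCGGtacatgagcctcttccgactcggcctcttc
Slc25a25: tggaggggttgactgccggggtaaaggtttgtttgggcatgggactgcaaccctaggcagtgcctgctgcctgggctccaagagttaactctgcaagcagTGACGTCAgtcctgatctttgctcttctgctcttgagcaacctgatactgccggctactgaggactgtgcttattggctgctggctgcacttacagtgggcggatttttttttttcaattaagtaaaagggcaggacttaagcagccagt
Of the 46 members, 36 had a promoter entry of 300 bases (250 before and 50 after the start). Among the 8 motifs searched on both strands, GGGCGG was in 30 of the 36 members (83.3%) and in 38.2% of all 27025 genes with an entry. TGACGTCA was in 2 members, Slc25a25 and Slc25a36, and in 2.03% of all genes, and AAGGTCA was in 1 member, Slc25a34, and in 5.38%. The motif of nuclear respiratory factor NRF1 was in 2 members (5.56%) beside 5.19% of all genes. The E-box CACGTG was in 7 members (19.4%) beside 8.09%, the GABPA motif CCGGAAG in 7 members (19.4%) beside 9.93%, TATAAA in 2 (5.56%) beside 15.7%, and the YY1 motif AANATGGCG in 1 (2.78%) beside 2.76%. A match is a run of letters and not a site shown to be bound, and the motifs in capitals were chosen after the search.

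The arrays differed in the level of cell type markers, both between states and within pairs. The 10 cardiomyocyte markers were all above the filter, and their mean lay between 11.95 and 12.21 on every array, lowest on day 19 replicate 2. At day 19, 1 of the 10 had a higher mean than in diestrus and 0 had a higher mean than at day 12. Post-partum, 9 were higher than at day 19. The part of these shifts in the carriers' differences was not tested. Day 19 replicate 2 stood apart: its correlation with the other arrays was 0.969 to 0.977, against 0.980 to 0.992 among the other 7. On it the 12 macrophage markers averaged 9.11, against 7.83 to 8.25 on the other arrays, and the 9 interferon-response genes measured averaged 8.44, against 6.26 to 6.64. In these lists Cd163 (6.48), Cd14 (6.11) and Ifit3 (5.86) lay within the range of the other arrays, and the rest were highest on it. Mx1, of the interferon genes, was below the filter. The 6 lymphocyte markers measured averaged 6.25 on it, against 4.79 to 5.34. Of these, Nkg7 (9.47), Cd3g (7.17) and Cd3e (6.34) were higher on it than on any other array. Cd79a (4.92) and Cd79b (5.61) lay within the range of the other arrays, and Ms4a1 (3.99) was lowest on it. Atrial markers differed within pairs: the mean of 7 was 9.15 on day 19 replicate 1 and 6.33 on replicate 2, 7.65 on day 12 replicate 3 and 6.08 on replicate 2, and 7.20 on diestrus replicate 3 and 6.22 on replicate 2. It was 6.13 and 6.22 post-partum. Myl7, an atrial myosin light chain, had 10.04 on day 12 replicate 3 and 8.24 on diestrus replicate 3, and 4.69 and 5.12 on replicate 2 of these states. Nppa went the other way, with 11.13 on day 12 replicate 3 and 11.03 on diestrus replicate 3, and 11.23 and 11.92 on replicate 2. The other markers of the list were higher on replicate 3 of both states, Bmp10 and Gja5 only slightly so at day 12. Main results of day 19 are therefore also given with each of its arrays left out.

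No carrier gene passed the test in any comparison. With limma's test adjusted over all 13872 genes, 0 of the 39 members and 0 of all genes (0%) reached an adjusted p of 0.05 in each of 5 comparisons, and the same held for the F test over the 4 states. The lowest adjusted p of any member was 0.589, in the comparison of post-partum with day 19. At an unadjusted p under 0.05 the F test called 6 of the 39 members (15.4%), beside 5.81% of all genes: Slc25a22, Slc25a34, Slc25a42, Slc25a45, Slc25a48 and Slc25a28, with unadjusted p of 0.0135 to 0.0495 and adjusted p from 0.726. The median SD within a state was 0.15 for the members and 0.17 for all genes, and the 4 state means of a member spanned a median of 0.32, beside 0.30 for all genes.

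**Figure D1:**
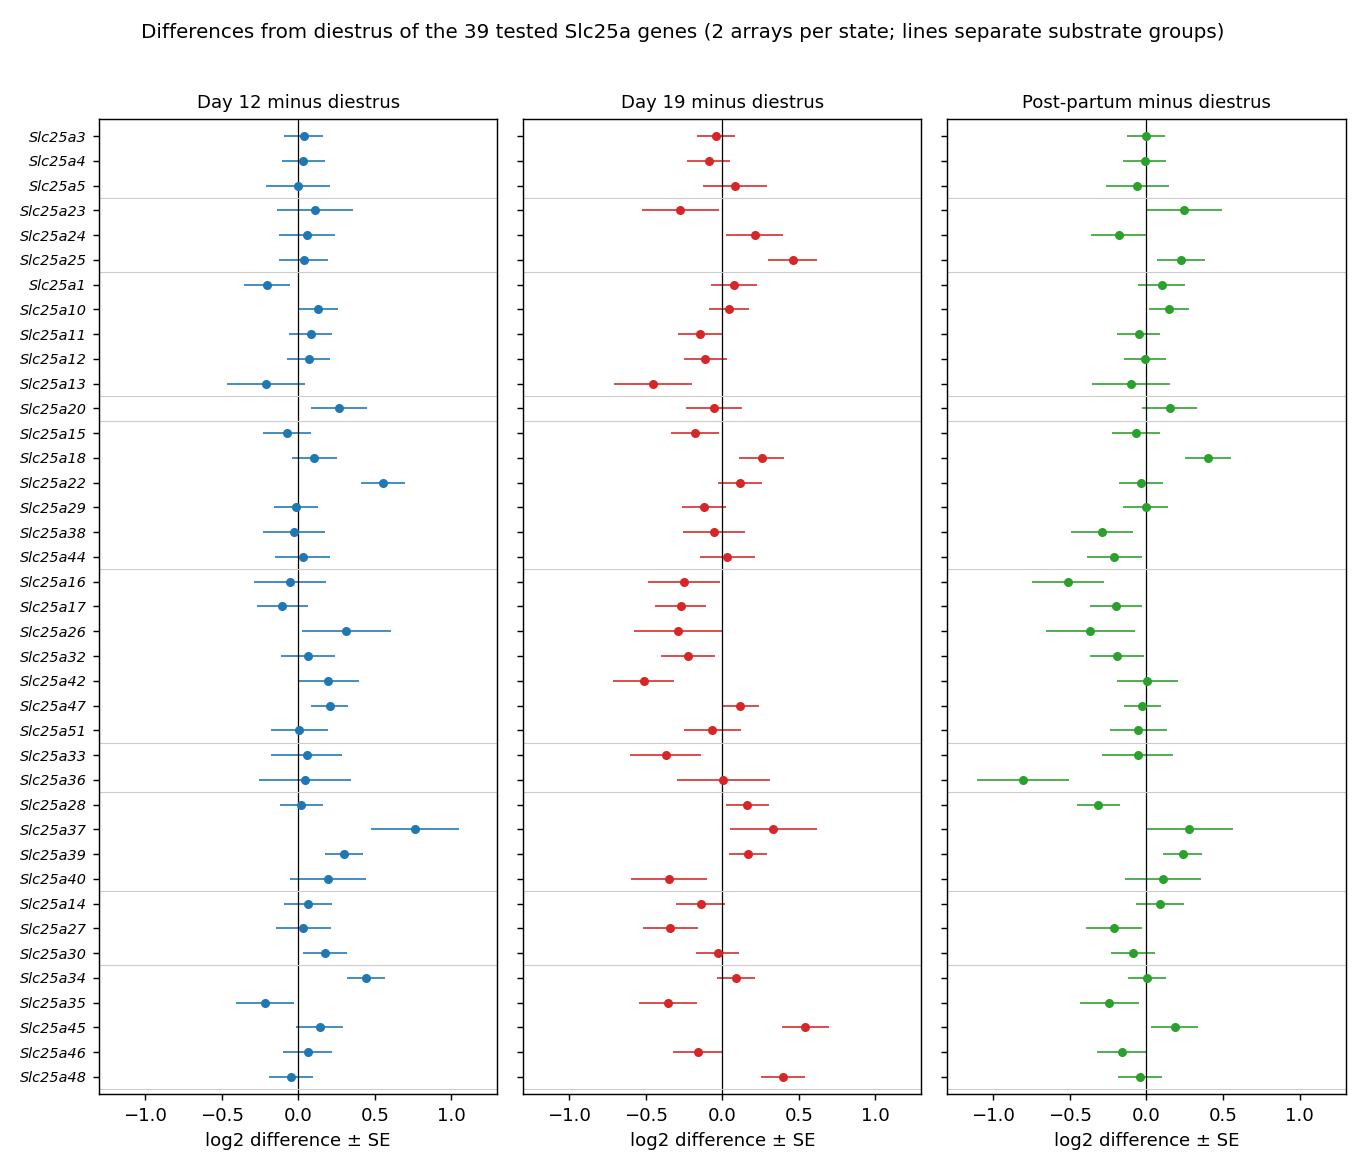
Each panel gives, for the 39 tested members (rows, in substrate groups), the log2 difference of 1 state from diestrus with its standard error on the horizontal axis. Points right of the line are higher in that state. Of the 39, 30 lie right of the line at day 12, 16 at day 19 and 14 post-partum.

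The carriers that serve the ATP synthase directly varied little across the states. Slc25a4, the ADP/ATP carrier of heart and muscle, had log2 values of 11.81 and 11.94 in diestrus, 11.89 and 11.92 at day 12, 11.92 and 11.65 at day 19, and 11.89 and 11.83 post-partum. Slc25a3, which imports phosphate, had 11.53 and 11.48, 11.61 and 11.47, 11.50 and 11.43, and 11.51 and 11.50 in the same order of states. Slc25a5, the ubiquitous ADP/ATP carrier, had 11.49 and 11.42, 11.57 and 11.34, 11.57 and 11.51, and 11.08 and 11.71. Its post-partum arrays lay at both ends of its whole range. RefSeq lists a pseudogene of Slc25a5, so its probe set may take signal from a near-identical copy. The 3 genes differed from diestrus by at most 0.09 in either direction.

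Of the malate-aspartate shuttle, the state means of Slc25a11 and Slc25a12 spanned 0.23 and 0.18, and those of Slc25a13, described with day 19, spanned 0.45, beside the members' median of 0.32. Slc25a11, the oxoglutarate carrier, had 12.30 and 12.19 in diestrus, 12.35 and 12.30 at day 12, 12.24 and 11.96 at day 19, and 12.18 and 12.22 post-partum. Slc25a12, the calcium-regulated aspartate-glutamate carrier of heart and brain, had 11.22 and 11.08, 11.25 and 11.18, 11.15 and 10.92, and 11.09 and 11.19. On both genes the lowest array was day 19 replicate 2. Slc25a20, the carnitine-acylcarnitine carrier, had 10.04 and 9.99 at day 12, against 9.77 and 9.73 in diestrus, a difference of 0.27 ± 0.18 (SE) with a limma adjusted p of 1. Its values were 9.96 and 9.43 at day 19 and 9.95 and 9.85 post-partum. Only on day 19 replicate 2 did it lie below the diestrus arrays.

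At day 12 more members lay above diestrus than below it. Of the 39, 30 (76.9%) had a higher mean at day 12 and 9 a lower one, while 55.1% of all genes had a higher mean. The median difference was 0.06 for the members and 0.02 for all genes. Both day 12 arrays lay above both diestrus arrays for 14 members (35.9%), beside 21.7% of all genes, and below for 1 member (2.56%), beside 15.6%. At an unadjusted p under 0.05, 4 members (10.3%) differed in either direction, beside 2.31% of all genes; 4 were higher (1.22% of all genes) and 0 lower (1.1%). The limma adjusted p was 1 for all 39. In bulk tissue, fewer cells of a type and less RNA per cell cannot be told apart.

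Slc25a22, a carrier that imports glutamate with a proton, had 7.96 and 7.98 at day 12, against 7.42 and 7.41 in diestrus. Both pairs were tight and far apart. The difference was 0.55 ± 0.14 (SE), 1.47-fold, with an unadjusted limma p of 0.00544 and an adjusted p of 1. Its values were 7.39 and 7.67 at day 19 and 7.29 and 7.47 post-partum, so its day 12 arrays were the 2 highest of the 8. Slc25a34, whose substrate is not settled, had 9.33 and 9.26 at day 12, against 8.93 and 8.78 in diestrus. It too was highest on both day 12 arrays, with 8.96 and 8.93 at day 19 and 8.85 and 8.88 post-partum. The difference from diestrus was 0.44 ± 0.125 (SE), with an unadjusted p of 0.00829.

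Slc25a37, mitoferrin-1, imports iron for haem synthesis and is known above all from red cell precursors. It had 8.90 and 9.37 at day 12, against 8.54 and 8.21 in diestrus, a difference of 0.76 ± 0.29 (SE), 1.70-fold, with an unadjusted limma p of 0.0297. The difference was 0.52 without day 12 replicate 3 and 1.00 without replicate 2. At later states it was high on 1 array of each pair, with 8.45 and 8.96 at day 19 and 8.99 and 8.32 post-partum. Of 12 red cell markers 5 were measured and 3 were above the filter, Epb42 and Ermap not being so; 4 of the 5 had a higher mean at day 12. The mean of the 5 was 6.51 and 6.72 at day 12, against 6.08 and 6.13 in diestrus, and it was 6.29 and 6.65 at day 19 and 6.40 and 6.21 post-partum. The replicate with the higher red cell mean had the higher Slc25a37 at day 12, at day 19 and post-partum, and the lower Slc25a37 in diestrus. The part of red cell RNA in this difference was not tested.

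Slc25a39, which takes glutathione into mitochondria, had 10.20 and 10.17 at day 12, against 9.85 and 9.93 in diestrus. The difference was 0.30 ± 0.13 (SE), with an unadjusted limma p of 0.0472. Its level was 10.13 and 9.98 at day 19 and 10.16 and 10.09 post-partum, above both diestrus arrays in every later state. Slc25a47, best known from liver, had 6.54 and 6.51 at day 12, against 6.28 and 6.36 in diestrus, a difference of 0.21 ± 0.12 (SE). It had 6.41 and 6.47 at day 19 and 6.25 and 6.34 post-partum. In RefSeq's gene order Slc25a47 neighbours Slc25a29, whose values stayed between 5.68 and 6.02 on all 8 arrays.

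**Figure D2:**
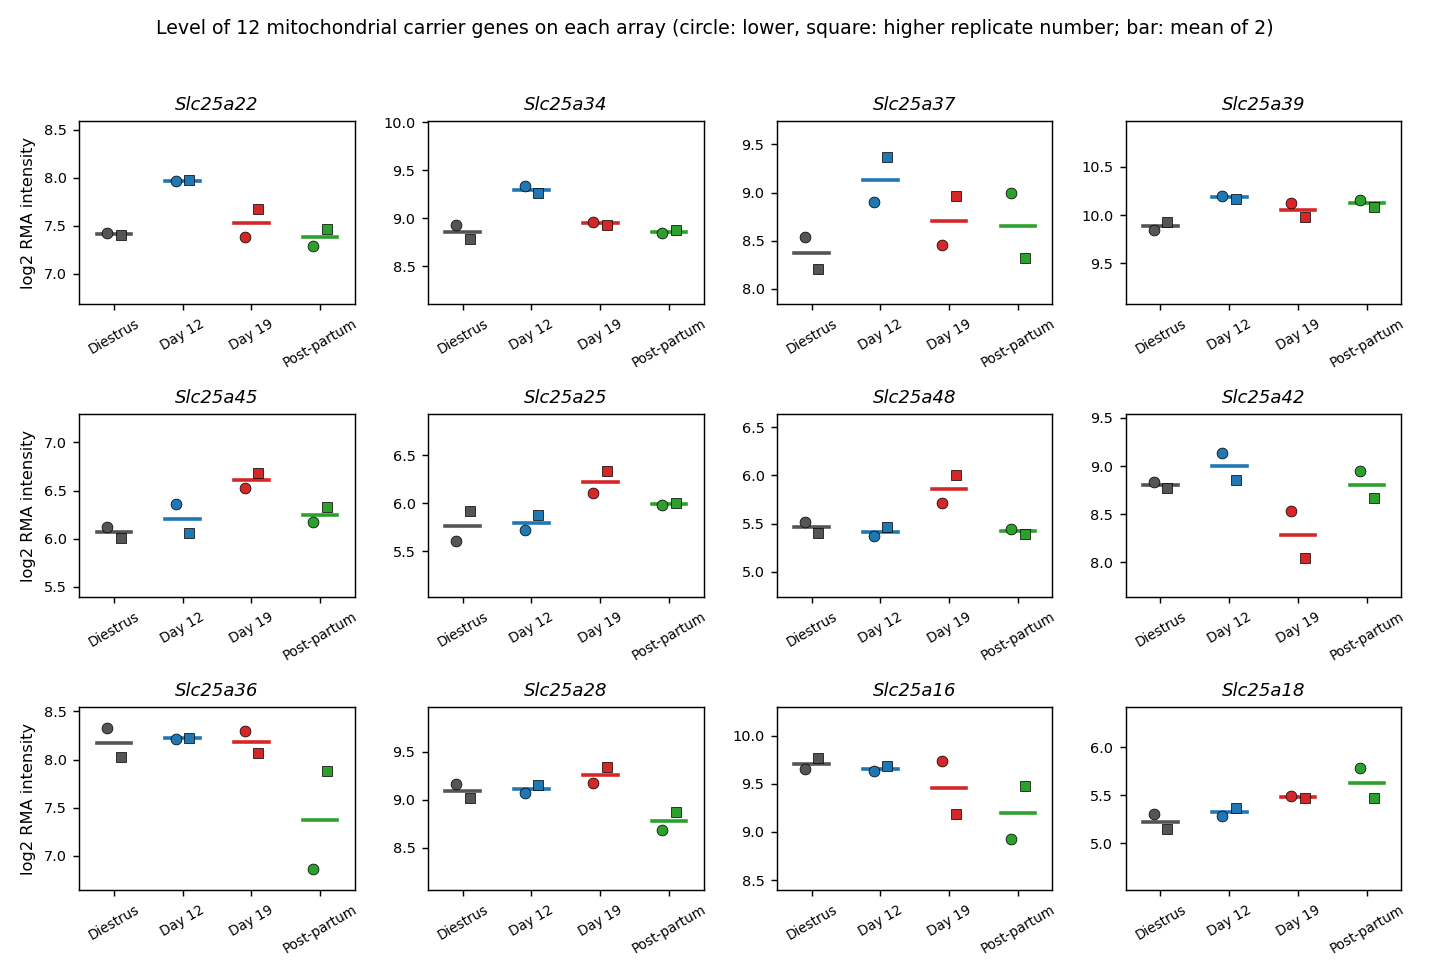
Log2 RMA intensity of 12 members on each array, by state; each panel has its own vertical scale of equal span, circles and squares are the lower and higher replicate number, and bars are the means of 2 arrays. Slc25a22 and Slc25a34 are highest on both day 12 arrays, Slc25a45, Slc25a25 and Slc25a48 on both day 19 arrays, and Slc25a42 is lowest on both day 19 arrays.

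At day 19 the members were split, and the split depended on the array. Of the 39, 16 (41%) had a higher mean than in diestrus, beside 44.5% of all genes, and the median difference was -0.05, beside -0.03. Both day 19 arrays lay above both diestrus arrays for 11 members (28.2%), beside 16.4% of all genes, and below for 6 (15.4%), beside 20.4%. At an unadjusted p under 0.05, 4 members (10.3%) differed in either direction, beside 7.29% of all genes; 3 were higher (3.7% of all genes) and 1 lower (3.59%). The members' limma adjusted p lay between 0.657 and 0.995. The median of the members was 0.05 on replicate 1 alone and -0.21 on replicate 2 alone. That of all genes was 0.02 and -0.08, so both changed sign with the array. On replicate 2, 13 of the 39 lay more than 0.5 from the diestrus mean (21.1% of all genes did), and on replicate 1 none did (3.41%). The arrays lay on the same side of diestrus for 26 members, 13 above and 13 below. The share of all genes on the same side was not counted, so this count cannot be set against it. The part in these values of the macrophage and interferon genes of replicate 2, and of the atrial genes of replicate 1, was not tested.

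**Figure D3:**
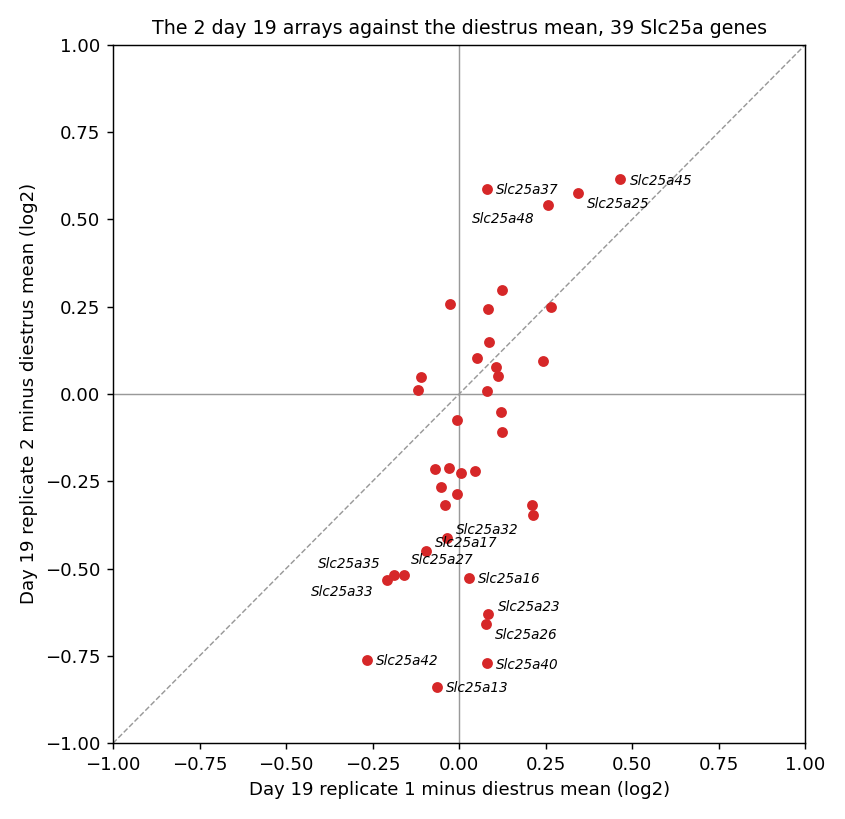
Each of the 39 members is a point, with its log2 difference from the diestrus mean on day 19 replicate 1 on the horizontal axis and on replicate 2 on the vertical axis; the dashed line marks equal values. Slc25a45, Slc25a25 and Slc25a48 lie high on both arrays and Slc25a42 low on both, while Slc25a13 and Slc25a40 lie far below 0 on replicate 2 and near 0 on replicate 1.

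Slc25a45, whose substrate is not settled, had 6.53 and 6.68 at day 19, against 6.13 and 6.00 in diestrus. No array of the other states reached that level, with 6.36 and 6.05 at day 12 and 6.18 and 6.32 post-partum. The difference from diestrus was 0.54 ± 0.15 (SE), 1.45-fold, with an unadjusted limma p of 0.00834 and an adjusted p of 0.657. It was 0.47 without day 19 replicate 2 and 0.61 without replicate 1. Slc25a25, a calcium-regulated carrier that exchanges ATP-magnesium for phosphate, had 6.11 and 6.34 at day 19, against 5.61 and 5.92 in diestrus. The difference was 0.46 ± 0.16 (SE), with an unadjusted limma p of 0.0208, and it was 0.30 without diestrus replicate 2. Without day 19 replicate 2 it was 0.34, and without day 19 replicate 1 it was 0.57. Slc25a25 had 5.72 and 5.88 at day 12 and 5.98 and 6.00 post-partum, so its day 19 arrays were again the highest.

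Slc25a48, for which a role in choline transport has been reported, had 5.72 and 6.00 at day 19, against 5.52 and 5.40 in diestrus. Its values at day 12, 5.37 and 5.46, and post-partum, 5.44 and 5.40, lay near those of diestrus. The difference was 0.40 ± 0.14 (SE), with an unadjusted limma p of 0.0253. It was 0.26 without day 19 replicate 2 and 0.54 without replicate 1. Slc25a42, which imports coenzyme A, had 8.54 and 8.04 at day 19, against 8.83 and 8.77 in diestrus, 0.70-fold. It was lower on both day 19 arrays than on any other, with 9.14 and 8.86 at day 12 and 8.95 and 8.67 post-partum. The difference was -0.51 ± 0.20 (SE), with an unadjusted limma p of 0.0342 and an adjusted p of 0.657. It was -0.27 without replicate 2 and -0.76 without replicate 1, where the adjusted limma p was 0.0474 (0.0474 to 1 over all alternatives).

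Slc25a27, a relative of the uncoupling proteins known from brain, had 6.20 and 5.84 at day 19, against 6.44 and 6.28 in diestrus. The difference was -0.34 ± 0.18 (SE), -0.16 without day 19 replicate 2 and -0.52 without replicate 1. Slc25a27 had 6.33 and 6.45 at day 12 and 6.33 and 5.97 post-partum. Slc25a35, whose substrate is not settled, had 7.74 and 7.41 at day 19, against 7.97 and 7.88 in diestrus. Its difference was -0.35 ± 0.19 (SE), -0.19 without day 19 replicate 2 and -0.52 without replicate 1. It had 7.93 and 7.49 at day 12, and 7.58 and 7.79 post-partum. Neither gene had an unadjusted p under 0.05. Slc25a13, the aspartate-glutamate carrier known as citrin, had 9.69 and 8.91 at day 19, against 9.88 and 9.63 in diestrus. Slc25a40, a close relative of Slc25a39, had 7.63 and 6.78 at day 19, against 7.53 and 7.57 in diestrus. Both were chosen for the text after their values were seen, and in both replicate 2 of day 19 was the lowest of the 8 arrays.

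After birth the members centred near diestrus, with a few far from it on 1 array. Of the 39, 14 (35.9%) had a higher post-partum mean than in diestrus, beside 49.4% of all genes. The median difference was -0.04, beside -0.0037 for all genes, and it was -0.0024 without post-partum replicate 2. The post-partum arrays lay above both diestrus arrays for 7 members (17.9%), beside 21.1% of all genes, and below for 6 (15.4%), beside 21.7%. At an unadjusted p under 0.05, 2 members (5.13%) differed in either direction, beside 6.62% of all genes; 1 was higher (3.38%) and 1 lower (3.24%). The members' limma adjusted p lay between 0.722 and 1. On post-partum replicate 2, 6 members (15.4%) lay more than 0.5 from the diestrus mean, close to the 13.9% of all genes. Of these, Slc25a37 (0.62) and Slc25a18 (0.56) were higher and the rest lower. On replicate 4 none did so (4.16% of all genes).

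Slc25a36, which carries pyrimidine nucleotides for mitochondrial RNA and DNA synthesis, had 6.86 and 7.88 post-partum, against 8.32 and 8.03 in diestrus, 0.57-fold. It was steady in pregnancy, with 8.21 and 8.23 at day 12 and 8.30 and 8.07 at day 19. The difference was -0.80 ± 0.30 (SE), with an unadjusted limma p of 0.0295, and it was -0.29 without post-partum replicate 2 and -1.31 without replicate 4. Most of the difference lay on replicate 2. Slc25a16, linked to coenzyme A transport, had 8.92 and 9.48 post-partum, against 9.65 and 9.77 in diestrus. The difference was -0.51 ± 0.23 (SE), -0.23 without replicate 2 and -0.79 without replicate 4; 9.63 and 9.68 were measured at day 12, and 9.74 and 9.18 at day 19.

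Slc25a28, mitoferrin-2, the iron importer of tissues other than the red cell lineage, had 8.69 and 8.87 post-partum, against 9.16 and 9.02 in diestrus. Both post-partum arrays were below all others, with 9.07 and 9.15 at day 12 and 9.18 and 9.34 at day 19. The difference was -0.31 ± 0.14 (SE), 0.80-fold, with an unadjusted limma p of 0.0561. Slc25a18, the second glutamate carrier, had 5.78 and 5.47 post-partum, against 5.30 and 5.15 in diestrus, close to the level of the filter. The difference was 0.40 ± 0.15 (SE), with an unadjusted limma p of 0.0269, and 0.25 without replicate 2. Its values were 5.29 and 5.37 at day 12 and 5.49 and 5.47 at day 19. Slc25a39 and Slc25a25, described above, differed from diestrus by 0.24 ± 0.13 and 0.23 ± 0.16 (SE) post-partum, the second being 0.07 without diestrus replicate 2 and 0.38 without replicate 3.

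From mid to late pregnancy most members had a lower mean, and the size of this shift depended on the day 19 array. Of the 39, 9 (23.1%) had a higher mean at day 19 than at day 12, beside 42.8% of all genes, and the median difference was -0.14, beside -0.04. It was -0.04 without day 19 replicate 2, beside 0.0004 for all genes, of which 49.9% were then lower. Without replicate 1 it was -0.25, beside -0.09. The arrays of day 19 lay below both day 12 arrays for 16 members (41%), beside 23.2% of all genes, and above for 7 (17.9%), beside 16.3%. At an unadjusted p under 0.05, 6 members (15.4%) differed, beside 6.47% of all genes, 3 lower (3.54%) and 3 higher (2.93%). Slc25a42 had the smallest p of them, with a difference of -0.71 ± 0.20 (SE), 0.61-fold, and an unadjusted limma p of 0.00802 and an adjusted p of 0.675. Without day 19 replicate 1 it was -0.96, with an adjusted limma p of 0.0227 (0.0227 to 1 over all alternatives), and -0.46 without replicate 2.

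Slc25a22 and Slc25a34, high at day 12, differed by -0.44 ± 0.14 and -0.35 ± 0.125 (SE), the first being -0.30 without day 19 replicate 1. Slc25a48 differed by 0.45 ± 0.14 (SE), 1.36-fold, and by 0.59 without day 19 replicate 1, with an adjusted limma p of 0.0486 (0.0486 to 1 over all alternatives). That difference was 0.30 without replicate 2.

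From day 19 to post-partum, 22 of the 39 members (56.4%) had a higher mean post-partum, beside 52.3% of all genes, with a median of 0.03 beside 0.01. It was -0.05 without day 19 replicate 2, beside -0.03 for all genes, and 0.14 without replicate 1, beside 0.07. The post-partum arrays lay above both day 19 arrays for 3 members (7.69%), beside 19% of all genes, and below for 8 (20.5%), beside 14.3%. At an unadjusted p under 0.05, 4 members (10.3%) differed, beside 8.25% of all genes, 3 lower (3.56%) and 1 higher (4.69%). Slc25a28 differed by -0.48 ± 0.14 (SE), with an unadjusted limma p of 0.00957 and an adjusted p of 0.589. Slc25a48 differed by -0.44 ± 0.14, Slc25a36 by -0.81 ± 0.30 and Slc25a42 by 0.52 ± 0.20 (SE). Without day 19 replicate 2 these were -0.30 for Slc25a48 and 0.27 for Slc25a42, and without post-partum replicate 2 the value of Slc25a36 was -0.30, and -1.32 without replicate 4. All comparisons with diestrus use the same 2 diestrus arrays, and those with day 19 the same 2 day 19 arrays.

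By substrate, some groups lay on 1 side in a comparison, though no member passed the adjusted test and several counts rested on 1 array. The iron and glutathione carriers were higher at day 12 than in diestrus for 4 of 4 members (55.1% of all genes), with a median of 0.25 beside 0.02 for all genes. The count was 3 of 4 without day 12 replicate 3 or without diestrus replicate 3. Those arrays had the higher mean of atrial markers in their states, and the part of these markers was not tested. The cofactor carriers were lower at day 19 than at day 12 for 7 of 7 members (57.2% of all genes), with a median of -0.20 beside -0.04. Without day 19 replicate 2 the count was 4 of 7 (49.9% of all genes) and the median -0.10. Against diestrus they were lower at day 19 for 6 of 7 (55.5% of all genes), with a median of -0.25. Without day 19 replicate 2 only 3 of 7 were lower (45.5%) and the median was 0.03, beside 0.02 for all genes, so both signs turned. Without replicate 1 the median of the cofactor carriers was -0.45, beside -0.08. Post-partum, 6 of 7 were lower than in diestrus (50.6% of all genes), with a median of -0.19. That median was -0.05 without post-partum replicate 2 and -0.34 without replicate 4, with 6 of 7 lower each time. The uncoupling-protein-like carriers were lower at day 19 than in diestrus for 3 of 3 (median -0.14), and for 2 of 3 without day 19 replicate 1 or without diestrus replicate 3. The di- and tricarboxylate carriers were higher post-partum than at day 19 for 5 of 5 (52.3% of all genes), with a median of 0.10 beside 0.01. Without day 19 replicate 2 this was 2 of 5 (45.6%), with a median of -0.01. Among the 6 tested amino acid carriers, 3 were higher and 3 lower at day 12 than in diestrus.

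**Figure D4:**
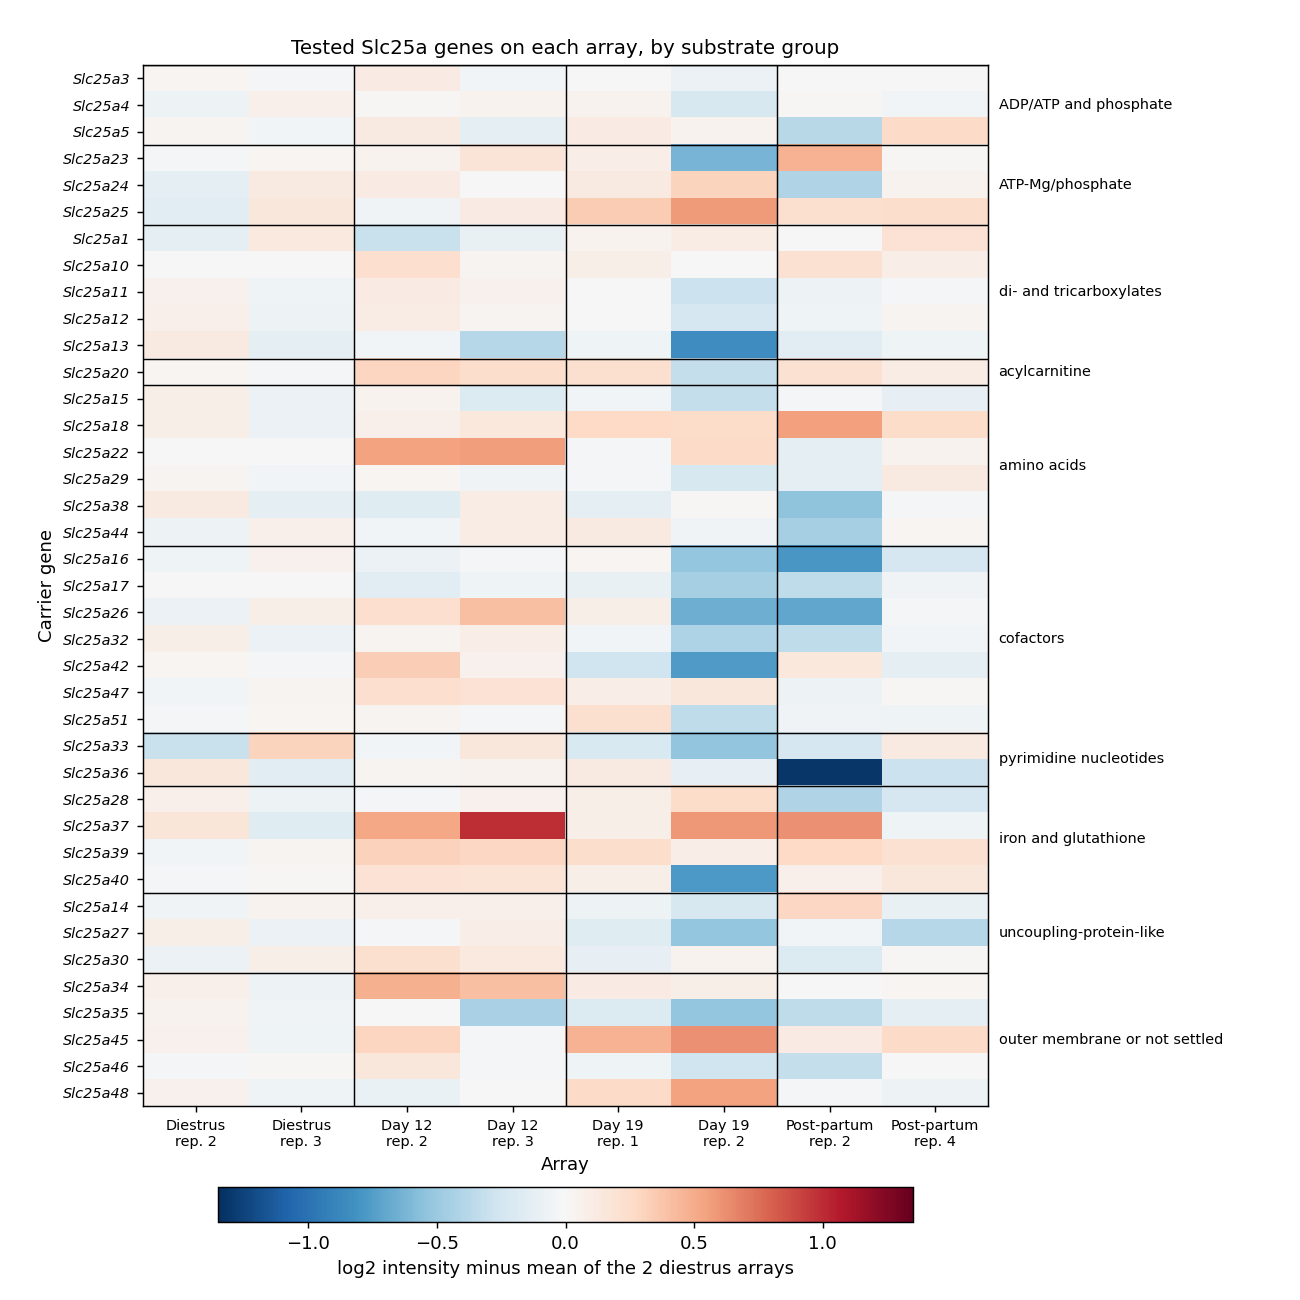
Colour gives the log2 value of each of the 39 tested members (rows, by substrate group) on each array (columns) minus the mean of the 2 diestrus arrays, red for higher and blue for lower. Slc25a37 on day 12 replicate 3 (1.00) is the highest of these and Slc25a36 on post-partum replicate 2 (-1.31) the lowest, and the blue cells gather on day 19 replicate 2 and post-partum replicate 2.

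Over the 4 states, day 12 held the highest mean for 20 of the 39 members (27.5% of all genes), day 19 for 7 (24.6%), post-partum for 5 (27.2%) and diestrus for 7 (20.7%). The lowest mean was at day 19 for 18 members (32.9% of all genes), post-partum for 12 (28.6%), diestrus for 7 (21%) and day 12 for 2 (17.5%). The pairs of arrays agreed best at day 12, where 0 members differed by more than 0.5 within the pair, against 8 at day 19, 6 post-partum and 1 in diestrus. In the same order, the SD of the difference within the pair was 0.24, 0.56, 0.33 and 0.26 over all genes tested. Over the members it was 0.18, 0.32, 0.33 and 0.18. Replicate 2 of day 19 was below replicate 1 for 28 of the 39 (61.7% of all genes), by a median of 0.18. The other 7 members, Slc25a2, Slc25a21, Slc25a31, Slc25a41, Slc25a43, Slc25a53 and Slc25a54, stayed below the filter in every state, with single arrays between 3.72 and 5.10. Slc25a31 is the ADP/ATP carrier of testis, and Slc25a21 carries oxodicarboxylates. Slc25a43, at up to 5.10, lay just below the filter, and Slc25a14, with state means up to 5.23, just above it.

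Genes that work with the carriers gave no call either. Ucp3, the muscle uncoupling protein of the same family under another symbol, had 7.85 and 7.65 at day 12, against 6.93 and 7.39 in diestrus. It had 6.96 and 6.71 at day 19 and 7.09 and 7.07 post-partum, and day 19 lay 0.91 below day 12, with an unadjusted limma p of 0.00126 and an adjusted p of 0.675. At day 19 several of these lists turned with the array. Of 14 tested ATP synthase subunits, 13 were lower at day 19 than in diestrus (55.5% of all genes; median -0.15), but 5 of 14 were without day 19 replicate 2 (45.5%; median 0.05). The 10 regulators of mitochondrial genes, such as the coactivator Ppargc1a, were all lower on average (median -0.14, with 0 of 10 at an unadjusted p under 0.05), but 5 of 10 were without day 19 replicate 2 (median 0.03) and 7 of 10 without diestrus replicate 2. Of 12 import factors for carriers, 9 were lower on average, but 3 were without day 19 replicate 2. The list of other inner membrane transport genes did not turn. Of its 14 tested genes, 11 were lower at day 19 than in diestrus (median -0.17). Without day 19 replicate 2, 10 of 14 were lower (45.5% of all genes), with a median of -0.04. Post-partum, 9 of the 14 ATP synthase subunits were lower than in diestrus (50.6% of all genes). Among 14 tested of 18 other inner membrane transport genes, 1, the pyruvate carrier subunit Mpc1, had an unadjusted p under 0.05 post-partum, at 11.74 and 12.52 against 12.74 and 12.65 in diestrus.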

How the data were processed

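RNA of mouse left ventricle was measured on 8 Affymetrix arrays. The authors deposited log2 intensities from RMA; the submitters' processing notes name Affymetrix Expression Console. Its version, and the array's genome build, were not stated by any source at hand. RMA normalises all arrays together and has no read depth, so the number of arrays limits the precision.

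Probe sets were named from the platform's annotation: 23521 of 34365 had 1 symbol, 1814 several and 9030 were unlisted. Symbols were checked against RefSeq by Entrez number (23328 matched, 0 changed). Genes were represented by the probe set with the highest mean. A probe set shared by Slc25a35 and another gene was left out. limma 3.58.1 in R 4.3.3 fitted 1 mean per state over 8 arrays, 4 residual and 3.68 prior degrees of freedom, with Benjamini-Hochberg adjustment over 13872 genes and a threshold of 0.05. The fit was tested on simulated data. Members, lists and tests were chosen with earlier results of these data known. Values on each array are given for the 6 members with the smallest p in each comparison with diestrus and in the F test, the 4 in each successive comparison, and 8 members with a known role in heart muscle. Alternatives were array weights, variance trend, filters, probe set averaging, re-scaling, fewer groups, a replicate block and leaving out arrays.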

Additional observations from a re-analysis of the deposited data

How the results depend on the processing

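Most alternatives could not change the sign of a named member's difference. Each member had 1 probe set, and array weights were equal within each pair. Variance trend, filters, fewer groups, the replicate block and leaving out an array of a state not compared also left the difference unchanged. The named differences were chosen for their small p in the same data. Of 407 values of the named members under the alternatives, 404 kept their side of the threshold. That 0 changed sign was therefore largely fixed in advance and is little evidence of stability. The other 3 passed the threshold, all without day 19 replicate 1 (Slc25a42 against diestrus and against day 12, and Slc25a48 against day 12). Of 92 alternative counts of members past the threshold, 88 were 0, as in the reported counts. Leaving out 1 array gave a range of 0 to 3 for day 19 against diestrus, 0 to 4 for day 19 against day 12, 0 to 1 for post-partum against day 19 and 0 to 1 for the F test. Each highest count came without day 19 replicate 1, where day 19 was replicate 2 alone and was assumed to vary like the other states. Then Slc25a13 (-0.84), Slc25a40 (-0.77) and Slc25a42 (-0.76) passed against diestrus among 1233 genes (8.89%). Slc25a20 (-0.58), Slc25a40 (-0.96), Slc25a42 (-0.96) and Slc25a48 (0.59) passed against day 12 among 1312 genes (9.46%). Slc25a40 (0.88) passed for post-partum against day 19 among 872 genes (6.29%), and it passed the F test among 663 (4.78%). The range of the members' median when 1 array was left out was -0.211 to 0.0505 for day 19 against diestrus, -0.254 to -0.0401 for day 19 against day 12 and -0.054 to 0.143 for post-partum against day 19. Under the stricter filter (a state mean of at least 5.74) Slc25a18 was not tested and has no value. Leaving out 1 array for the substrate groups and related lists was also chosen after seeing the data. Leaving out both day 19 arrays, likewise, gave 0 members in the 2 comparisons it allowed.

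Day 12 and diestrus share replicate numbers 2 and 3. Arrays with the same number deviated together with a correlation of 0.22, but the labels do not tie the numbers to animals or days. Replicate 3 of both states also had a higher mean of atrial markers than replicate 2, though not of Nppa. The part of these markers in this correlation was not tested. With the replicate number as a block, 0 members passed at day 12 (lowest adjusted limma p 0.196, against 0.196 to 1 over all alternatives), 6 members had an unadjusted p under 0.05, 18 genes passed in all where the unblocked fit had 0, and the median stayed 0.06. Replicate numbers 1 and 4 each occur on 1 array, so in the blocked fit only the day 12 and diestrus arrays measured each gene's spread. The share of all genes at an unadjusted p under 0.05 in that fit was not counted. With array weights 0 members and 1 gene passed at day 12 against diestrus. With 2 arrays per state and a median SE of 0.16 for a member's difference, small differences between states could not be resolved.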
